A study of Mus musculus with 10 samples.

Results

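Homing receptors are the G protein-coupled receptors that steer lymphocytes along gradients of chemokines or of the lipid sphingosine 1-phosphate, and so set where a cell goes and when it leaves an organ. In the thymus they move precursors between cortex and medulla and release mature cells to the blood, and in the periphery the chemokine receptors of a T cell differ with its effector program. Ccr9, Ccr7, Ccr4, Ccr2, Cxcr3, Cxcr4, Cxcr6 and S1pr1 were followed here in invariant natural killer T cells (iNKT cells), which develop in the thymus and whose semi-invariant receptor recognises lipids on CD1d. The members were all probe sets that the platform annotation gives to these 8 genes, each taken apart. They were 16 of 45037 probe sets and 8 of 18193 genes on the array, and 0 of the 16 were shared with another gene.

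The cells were sorted from thymi of 6-week-old C57BL/6 mice, either without Id3 (Id3KO), which blocks DNA binding by E proteins, or wild type (WT). All cells bound the CD1d tetramer (Tet+) and lacked CD24 and NK1.1. The stages were parted by CD44, which was high on stage 2 cells and low on stage 1 cells. There were 3 arrays of Id3KO and 3 of WT cells at stage 2, and 2 of Id3KO and 2 of WT cells at stage 1, labelled as biological replicates. The labels say neither how Id3 was disrupted nor whether mice were pooled for a sort.

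The array medians lay between 54.8 and 55.5 on the linear intensity scale, and the number of arrays limits the precision of every value. Id3 itself stood at 54.19 to 69.8 on the Id3KO stage 2 arrays against 818.2 to 1065 on the WT ones, and at 63.36 to 65.41 in Id3KO against 1282 to 1289 in WT cells at stage 1. A probe set was tested when it was brighter than the median of the table (55.1, or 5.78 as log2) on at least 2 arrays, and 25061 were. All 8 genes of the T cell and iNKT list passed this filter, Zbtb16 and the CD3 chains included. Of 7 markers of double-positive thymocytes, Cd8b1, Rag1, Rag2, Dntt and Ptcra did not, and the brightest value of these 5 on any array was 54.6. Ms4a1 of B cells, Itgam, Itgax and Cd68 of myeloid cells, Foxp3 of regulatory T cells and Ncr1 of NK cells were not kept either. Of the 8 myeloid and dendritic cell markers, 5 were kept (Lyz2, Csf1r, Siglech, Flt3 and Mpeg1), with a highest value of 79.19 on any array, and the 8 together overlapped between genotypes at both stages, at 423.2 to 438 in Id3KO and 419.4 to 430.7 in WT cells at stage 2. Of the 4 regulatory T cell markers Ikzf2 was kept, and the list summed to 447 to 524.1 in Id3KO and 539.6 to 598.1 in WT cells at stage 2, and to 479.1 to 705.6 in Id3KO and 620.4 to 646.7 in WT cells at stage 1. The subset markers differed at stage 2. The summed intensity of 5 NKT1 markers was 455.4 to 699 on Id3KO arrays and 1559 to 1753 on WT arrays. Of these markers 4 were tested and 3 were lower in Id3KO cells, against 5.58% of all genes called in either direction. Ifng, 1 of the 3, was kept only through WT stage 2 arrays, so its call is not read as a result. It was 43.2 to 48.09 in Id3KO and 65.29 to 78.25 in WT cells at stage 2. The 4 of 6 NKT17 markers with a probe set summed to 262.6 to 356 on Id3KO and 1497 to 2410 on WT arrays. All 4 were lower, against the same 5.58%. These lists were chosen with earlier results of these data known. At stage 1 the sums were 483.4 to 839 in Id3KO and 787.4 to 859.9 in WT for NKT1 markers, and 297.4 to 332 in Id3KO and 339.1 to 559.2 in WT for NKT17 markers. The 5 NKT2 markers, which include Ccr4, summed to 2778 to 3127 in Id3KO and 3220 to 3310 in WT cells at stage 2, and to 2775 to 2790 in Id3KO and 2913 to 3429 in WT cells at stage 1. Of these Il13 was lower in Id3KO cells at stage 2 (log2 -0.58 ± 0.12, SE, limma adjusted p = 0.0327) and at stage 1 (-0.98 ± 0.15, SE, adjusted p = 0.0240), and the other 4 did not pass at either stage. The NK cell list (4 of 5 with a probe set, 2 kept) summed to 277.5 to 391.9 in Id3KO and 464.9 to 626.1 in WT cells at stage 2, and to 322.1 to 450 in Id3KO and 237.6 to 272.6 in WT cells at stage 1. Of its 2 kept markers Klrd1 passed at stage 2 and Eomes did not. Klrd1 was lower in Id3KO cells (log2 -1.04 ± 0.22, SE, limma adjusted p = 0.0379). Eomes was 55.64 to 103.1 in Id3KO and 48.08 to 53.9 in WT cells (0.61, adjusted p = 0.221). At stage 1 neither passed, with Klrd1 at 0.52 (adjusted p = 0.583) and Eomes at 1.33 (adjusted p = 0.0929). The WT values of Eomes lay under 55.1 at both stages. Eomes was thus kept only through Id3KO arrays, and its direction is not read as a result. The B cell list (5 of 6 with a probe set, 4 kept) overlapped at stage 2, at 351.1 to 710.4 in Id3KO and 606.7 to 759.3 in WT cells. The part of these cell types in the results below was not tested, and in sorted populations fewer cells of a type and less RNA per cell cannot be told apart.

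Of the 16 receptor probe sets, 15 were kept. The probe set left out, Ccr2 1421187_at, stayed between 46.04 and 55.43 on all arrays. At stage 2, 6 of the 15 passed limma's test between genotypes (adjusted p under 0.05), 3 higher and 3 lower in Id3KO cells, against 4.21% of all tested probe sets. Counted as 1 probe set per gene, 3 of 8 receptors passed, against 5.58% of all genes. At stage 1, 1 of 15 passed, against 0.802% of probe sets, or 1 of 8 receptors against 1.05% of genes. The median log2 difference of the 15 was -0.07 at stage 2 and 0.12 at stage 1, beside 0.01 and -0.01 over all tested probe sets. With 1 probe set per gene the median of the 8 receptors was -0.14 at stage 2 and -0.03 at stage 1. The sign at stage 1 thus depended on how probe sets were counted. Id3KO and WT arrays were fully apart for 9 of the 15 at stage 2, against 21.4% of all probe sets, and for 14 of the 15 at stage 1, against 41.5%. Probe sets of 1 gene read the same transcripts and are not independent of each other. The receptors were chosen with earlier results of these data known, so these shares are not read as an enrichment.

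**Figure D1:**
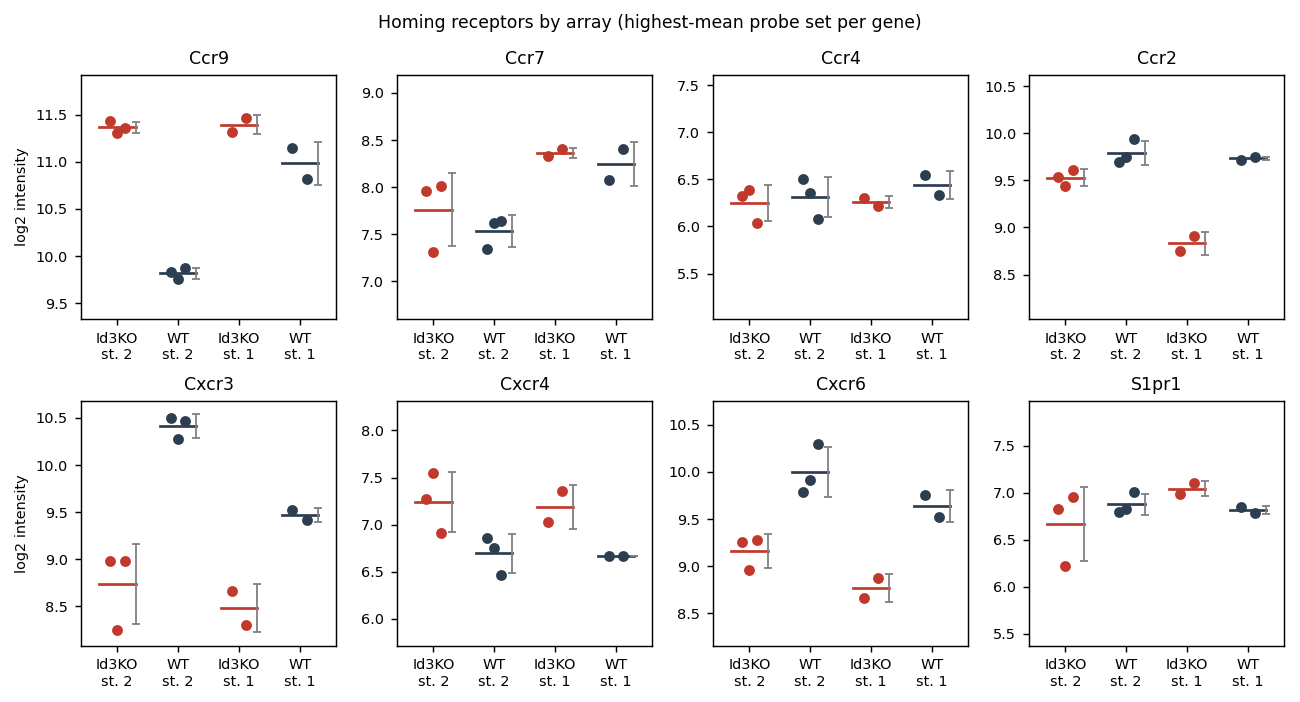
Log2 intensity of the highest-mean probe set of each receptor on the 10 arrays, with Id3KO cells in red and WT cells in dark blue (st., stage; lines, group means; grey bars, SD; each panel spans the same 2.6 log2 units). The WT stage 2 arrays stand apart from the other groups at the bottom for Ccr9 and at the top for Cxcr3, and the Id3KO stage 1 arrays stand apart at the bottom for Ccr2.

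Ccr9, the receptor for Ccl25, which thymic epithelium and the small intestine make, was higher in Id3KO cells at stage 2. Its brightest probe set, 1427419_x_at, read 2759, 2536 and 2637 on the Id3KO stage 2 arrays, against 911.2, 864 and 935.8 on the WT stage 2 arrays. In stage 1 cells it read 2560 and 2837 in Id3KO cells, against 2264 and 1811 in WT cells. Every Id3KO array was above every WT array, and the WT stage 2 arrays were the lowest of all. The stage 2 difference was 2.93-fold (log2 fold change 1.55 ± 0.10, SE, n = 3 each, limma adjusted p = 0.000211). At stage 1 the log2 difference was 0.41 ± 0.12 (SE, n = 2 each) and did not pass (adjusted p = 0.215, 95% interval 0.15 to 0.68).

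The name of this probe set marks a class that can also bind other transcripts, so the remaining Ccr9 probe sets were read beside it. Probe set 1421920_a_at read 731.7, 630.5 and 672.4 in Id3KO against 270.1, 227.1 and 189.1 in WT cells at stage 2, a 2.99-fold difference (log2 1.58 ± 0.13, SE, limma adjusted p = 0.000542). Its stage 1 arrays read 653.7 and 697.4 in Id3KO against 507.7 and 453.6 in WT cells (log2 0.49, adjusted p = 0.283). The dimmer 1421919_a_at was also higher at stage 2 (log2 0.98 ± 0.14, SE, adjusted p = 0.00579), with a WT mean of 49.3, under the 55.1 needed to be tested, so that no fold is given. Probe sets 1442758_at and 1436065_at, with no group mean above 81.3, stood at 0.49 (adjusted p = 0.0697) and 0.25 (adjusted p = 0.539) on the log2 scale and did not pass. Their WT stage 2 means of 53.5 and 54.7 also lay under 55.1, so these differences are not read as folds. The value of 1442758_at passed with array weights (adjusted p = 0.0218), without Id3KO replicate 3 of stage 2 (0.0284) and with the crossed replicate block (0.0457). At stage 2 the 3 Ccr9 calls held in each of the 19 alternatives, with adjusted p at most 0.029. Ccr9 is also expressed by double-positive thymocytes, and the summed level of the 7 markers of those cells was 537.2 to 693.7 on Id3KO and 778.9 to 865.5 on WT arrays at stage 2. Of these markers Cd1d1 was 226.9 to 395.4 in Id3KO and 477.1 to 551.5 in WT cells (log2 -0.78 ± 0.17, SE, limma adjusted p = 0.0436), and Cd8a was 73.96 to 77.88 in Id3KO and 71.68 to 87.71 in WT cells (-0.04, adjusted p = 0.893). The part of such cells in the Ccr9 level was not tested.

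Cxcr3, the receptor for the interferon-induced chemokines Cxcl9, Cxcl10 and Cxcl11 and a marker of interferon gamma-producing T cells, was lower in Id3KO cells at stage 2. Its probe set read 505.3, 303.4 and 506.1 on the Id3KO stage 2 arrays, against 1452, 1236 and 1411 on the WT stage 2 arrays. At stage 1 it read 406.2 and 315.6 in Id3KO cells, against 736.5 and 684.1 in WT cells. All 5 Id3KO arrays lay below all 5 WT arrays, and the Id3KO arrays of the stages overlapped. The stage 2 difference was 3.20-fold (log2 -1.68 ± 0.20, SE, n = 3 each, limma adjusted p = 0.00261, at most 0.0164 over the alternatives). At stage 1 the log2 difference was -0.99 ± 0.24 (SE, n = 2 each, adjusted p = 0.139), which passed only when Id3KO replicate 2 of stage 2 was left out (adjusted p = 0.0236, and up to 0.540 over the other alternatives).

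Cxcr6, the receptor for Cxcl16 and known from mice for the homing and survival of iNKT cells in the liver, was lower in Id3KO cells at stage 2 on both of its probe sets. The brighter one, 1422812_at, read 609.6, 497.2 and 620.1 in Id3KO cells at stage 2, against 883, 963.4 and 1254 in WT cells. In stage 1 cells it read 405.1 and 470.1 in Id3KO cells, against 865.7 and 734.7 in WT cells. The genotypes did not overlap at either stage, and the log2 differences were -0.84 ± 0.15 at stage 2 (SE, n = 3 each, limma adjusted p = 0.0179) and -0.87 ± 0.18 at stage 1 (SE, n = 2 each, adjusted p = 0.0856, or 0.0499 with the crossed replicate block). The dimmer 1425832_a_at read 200.1, 160.3 and 185.6 in Id3KO against 267.1, 277.2 and 441 in WT cells at stage 2 (log2 -0.82 ± 0.18, SE, adjusted p = 0.0414), and it stood at -0.59 at stage 1 (adjusted p = 0.387). The call of the brighter probe set at stage 2 was lost without Id3KO replicate 2 of stage 2 (adjusted p = 0.0593) and in a fit of the stage 2 arrays alone (0.0506). That of the dimmer one was lost without 8 of the 10 arrays in turn, all but WT replicates 1 and 3 of stage 2, with adjusted p up to 0.122, without a filter (0.0694) and in a fit of the stage 2 arrays alone (0.111).

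Ccr2, the receptor for Ccl2 that draws cells to inflamed tissue, was the receptor that passed at stage 1, where it was lower in Id3KO cells. Its brightest probe set, 1421186_at, read 429.5 and 482.1 in Id3KO stage 1 cells, against 843.8 and 858.7 in WT stage 1 cells. At stage 2 it read 742.9, 693.5 and 784.1 in Id3KO cells, against 829.4, 857.4 and 978.9 in WT cells. The genotypes did not overlap at either stage, and the Id3KO stage 1 arrays were the lowest of all 10. The stage 1 difference was 1.87-fold (log2 -0.90 ± 0.11, SE, n = 2 each, limma adjusted p = 0.0118), and the stage 2 difference was -0.26 ± 0.09 on the log2 scale (SE, n = 3 each, adjusted p = 0.165). The stage 1 call was lost without WT replicate 1 (adjusted p = 0.0976), WT replicate 2 (0.0852) or Id3KO replicate 1 (0.0770) of stage 1, and in a fit of the stage 1 arrays alone (0.0987). The dimmer 1421188_at stood at -0.54 (adjusted p = 0.150) and 1460067_at at -0.21 (adjusted p = 0.565) at stage 1. At stage 2 they stood at -0.28 (adjusted p = 0.243) and -0.13 (adjusted p = 0.545), so none of the Ccr2 probe sets passed there.

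Cxcr4, the receptor for Cxcl12 that holds thymocyte precursors in the cortex, read 154.1, 187.3 and 120.3 in Id3KO against 116.4, 108 and 88.47 in WT cells at stage 2. Its stage 1 arrays read 130.3 and 163.9 in Id3KO against 101.5 and 101.6 in WT cells. The genotypes did not overlap at either stage, but the log2 differences of 0.55 ± 0.17 (SE, n = 3 each, limma adjusted p = 0.132) and 0.52 ± 0.21 (SE, n = 2 each, adjusted p = 0.421) did not pass. The stage 2 value passed only without Id3KO replicate 3 of stage 2 (adjusted p = 0.0496, and up to 0.349 over the other alternatives). The 95% intervals of Cxcr4 were 0.16 to 0.94 at stage 2 and 0.05 to 1.00 at stage 1, before adjustment for the number of probe sets.

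Ccr7, S1pr1 and Ccr4 did not pass the test between genotypes at either stage. Ccr7, which responds to Ccl19 and Ccl21 and leads cells into the thymic medulla and lymph nodes, read 248.2, 159.2 and 258.5 in Id3KO against 162.3, 196.9 and 200 in WT cells at stage 2, with overlap. At stage 1 it read 321.5 and 338.1 in Id3KO against 270.3 and 339.9 in WT cells, again with overlap. Its log2 difference was 0.23 at stage 2 (95% interval -0.20 to 0.65, limma adjusted p = 0.636) and 0.12 at stage 1 (95% interval -0.40 to 0.64, adjusted p = 0.929).

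S1pr1, the sphingosine 1-phosphate receptor that lets mature T cells leave the thymus, read 113.9, 74.75 and 123.7 in Id3KO against 110.7, 113.6 and 128.5 in WT cells at stage 2. In stage 1 cells it read 126.7 and 137.4 in Id3KO, above 115.1 and 110.4 in WT cells. The log2 difference was -0.21 at stage 2 (95% interval -0.59 to 0.18, limma adjusted p = 0.636) and 0.23 at stage 1 (-0.25 to 0.70, adjusted p = 0.800). The stage 2 value rested on Id3KO replicate 2, the array at 74.75, and was 0.02 without it.

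Ccr4, the receptor for Ccl17 and Ccl22 that is found on type 2 helper cells and medullary thymocytes, read 80.26, 83.65 and 65.48 in Id3KO against 90.84, 81.78 and 67.86 in WT cells at stage 2. Its stage 1 arrays read 79.02 and 74.39 in Id3KO against 93.67 and 80.65 in WT cells. All 10 values lay between 65.48 and 93.67, close to the 55.1 needed to be tested. The log2 difference was -0.07 at stage 2 (95% interval -0.37 to 0.24, limma adjusted p = 0.884) and -0.18 at stage 1 (-0.55 to 0.19, adjusted p = 0.795).

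**Figure D2:**
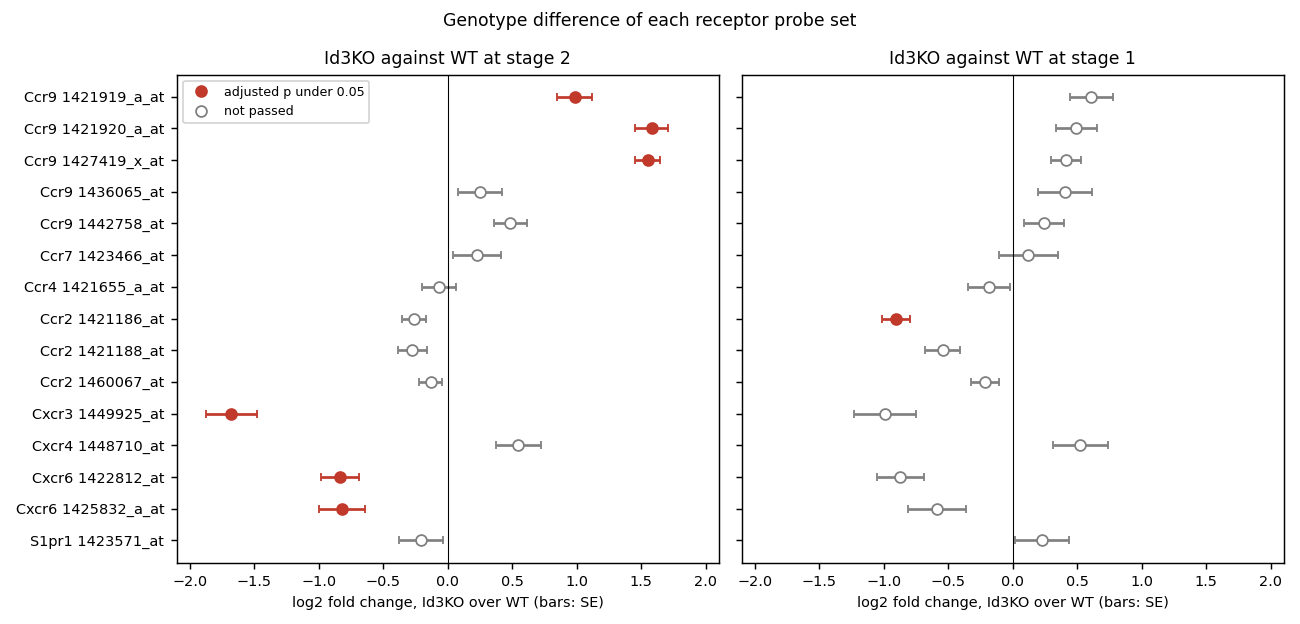
Log2 fold change of Id3KO over WT for the 15 tested receptor probe sets at stage 2 (left) and stage 1 (right), with the SE of the limma fit as bars and filled red points where the adjusted p was under 0.05. At stage 2, 3 Ccr9 probe sets lie to the right of 0 and Cxcr3 and both Cxcr6 probe sets to the left, and at stage 1 the filled point is that of Ccr2 1421186_at at -0.90.

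The differences between stage 2 and stage 1 were taken within each genotype. In WT cells Ccr9 was lower at stage 2, with 911.2, 864 and 935.8 at stage 2 against 2264 and 1811 at stage 1 on its brightest probe set. The difference was 2.24-fold (log2 -1.16 ± 0.11, SE, n = 3 against 2, limma adjusted p = 0.0178). It was 1 of 15 receptor probe sets that passed, against 0.0160% of all probe sets (4 of 25061), or 1 of 8 receptors against 0.0335% of genes. Of the 4 probe sets called on the array, 1 was lower at stage 2, which was this one. The call was lost without WT replicate 1 (adjusted p = 0.124) or 2 (0.0505) of stage 1, WT replicate 2 (0.0502) or 3 (0.0667) of stage 2, or either Id3KO replicate of stage 1 (0.0521 each), when only WT arrays were fitted (0.191), and with the replicate block (0.105). Probe set 1421920_a_at, with 270.1, 227.1 and 189.1 at stage 2 against 507.7 and 453.6 at stage 1, was 2.12-fold lower and did not pass (log2 -1.08 ± 0.14, SE, adjusted p = 0.0764).

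In Id3KO cells Ccr9 read 2759, 2536 and 2637 at stage 2 and 2560 and 2837 at stage 1, and the stages overlapped (log2 -0.03 ± 0.11, SE, 95% interval -0.27 to 0.21). The difference between the stage effects, Id3KO minus WT, was 1.14 ± 0.15 on the log2 scale for 1427419_x_at (SE, limma adjusted p = 0.261, unadjusted 4.16e-05) and 1.09 ± 0.20 for 1421920_a_at (adjusted p = 0.474). It did not pass the test over all probe sets. In this interaction limma called 0 of 15 receptor probe sets and 0% of all 25061, while 3 and 1772 had an unadjusted p under 0.05.

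Of the other receptors in WT cells, Cxcr3 stage 2 arrays lay above the stage 1 arrays, but the difference did not pass (log2 0.94 ± 0.22, SE, limma adjusted p = 0.274). In Id3KO cells it stood at 0.25 ± 0.22 with overlap, and the difference between the stage effects was -0.69 ± 0.31 (SE, adjusted p = 0.710). Ccr7 stage 2 arrays lay below the stage 1 arrays in both genotypes, at -0.60 ± 0.21 in Id3KO and -0.71 ± 0.21 in WT cells (log2, SE), and passed in neither (adjusted p = 1.00 and 0.445). Cxcr6 1422812_at stage 2 arrays lay above the stage 1 arrays in both, at 0.39 ± 0.17 in Id3KO and 0.36 ± 0.17 in WT cells (log2, SE, adjusted p = 1.00 and 0.644).

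For Ccr2 the stages were apart in Id3KO cells and overlapped in WT cells. The stage 2 difference of 1421186_at in Id3KO cells was 0.70 ± 0.10 on the log2 scale (SE, n = 3 against 2, limma adjusted p = 0.811, unadjusted 7.20e-05), and in WT cells the difference was 0.06 ± 0.10 (adjusted p = 0.947). The difference between these stage effects was 0.64 ± 0.14 (SE, adjusted p = 0.507). S1pr1 stage 2 arrays lay below the stage 1 arrays in Id3KO cells (log2 -0.37 ± 0.19, SE, adjusted p = 1.00). In Id3KO cells limma called 0 of the 15 receptor probe sets between stages, and 0% of all, while 4 receptor probe sets and 1131 of all had an unadjusted p under 0.05. The stages did not overlap for 6 of 15 in Id3KO cells, against 18.4% of all probe sets, and for 8 of 15 in WT cells, against 26.2%. CD44 is the protein by which the stages were sorted, and Cd44 read 280.1 to 577 at stage 2 and 130.3 to 255.1 at stage 1 in Id3KO, against 653.1 to 858 at stage 2 and 147 to 224.2 at stage 1 in WT cells.

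**Figure D3:**
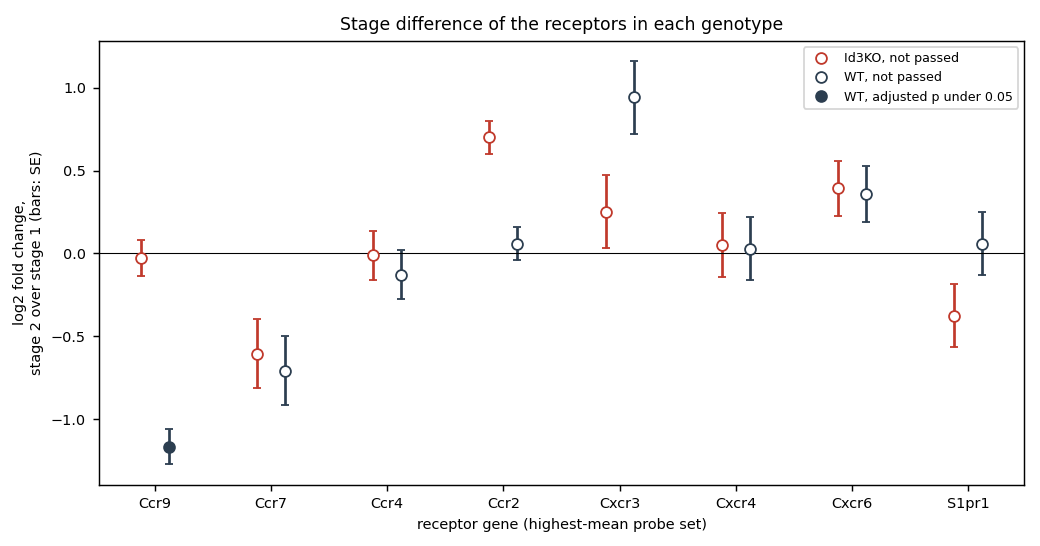
Log2 fold change of stage 2 over stage 1 for the highest-mean probe set of each receptor in Id3KO cells (red, left) and WT cells (dark blue, right), with SE as bars and a filled point where the adjusted p was under 0.05. Ccr9 at -1.16 in WT cells is the filled point, beside -0.03 in Id3KO cells, while Ccr2 stands at 0.70 in Id3KO and 0.06 in WT cells.

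The order of the 4 groups differed among the receptors. By mean log2 level, Ccr9 ran Id3KO stage 1, Id3KO stage 2, WT stage 1 and WT stage 2 from high to low, with overlap between the first pair. Cxcr3 and Cxcr6 ran the other way, from WT stage 2 and WT stage 1 to Id3KO stage 2 and Id3KO stage 1, and the Id3KO groups overlapped for Cxcr3. Ccr2 kept that order too, but WT stage 2 and WT stage 1 overlapped and the Id3KO stage 1 arrays stood alone at the bottom. For Cxcr4 the groups divided by genotype, with both stages overlapping, and for Ccr7 by stage, with both genotypes overlapping.

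Of the 8 genes, 4 lie on chromosome 9, and Ccr9, Cxcr6 and Ccr2 belong to the receptor cluster there. In the RefSeq gene table for GRCm38.p6 the protein-coding genes of this stretch run Lztfl1, Ccr9, Fyco1, Cxcr6, Xcr1, Ccr1, Ccr1l1, Ccr3 and Ccr2, and Cxcr6 lies inside the span of Fyco1. This stretch was chosen after its values were seen. At stage 2 the genes at its start were higher in Id3KO cells, with Lztfl1, which acts in transport to the cilium, at 777.1, 804.4 and 750 in Id3KO against 189.2, 231.8 and 299.3 in WT cells (log2 1.72 ± 0.16, SE, limma adjusted p = 0.000875). A further probe set of Lztfl1 passed (0.65, adjusted p = 0.0134), and the other 3 stood at 0.32 to 0.67 and did not. Fyco1, an adaptor of vesicle transport, did not pass, at -0.05 ± 0.15 (SE, adjusted p = 0.935). Cxcr6 was lower, as given above. Xcr1, Ccr1, Ccr1l1 and Ccr3 were not bright enough to be tested, with a highest value of 50.97 on any array.

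**Figure D4:**
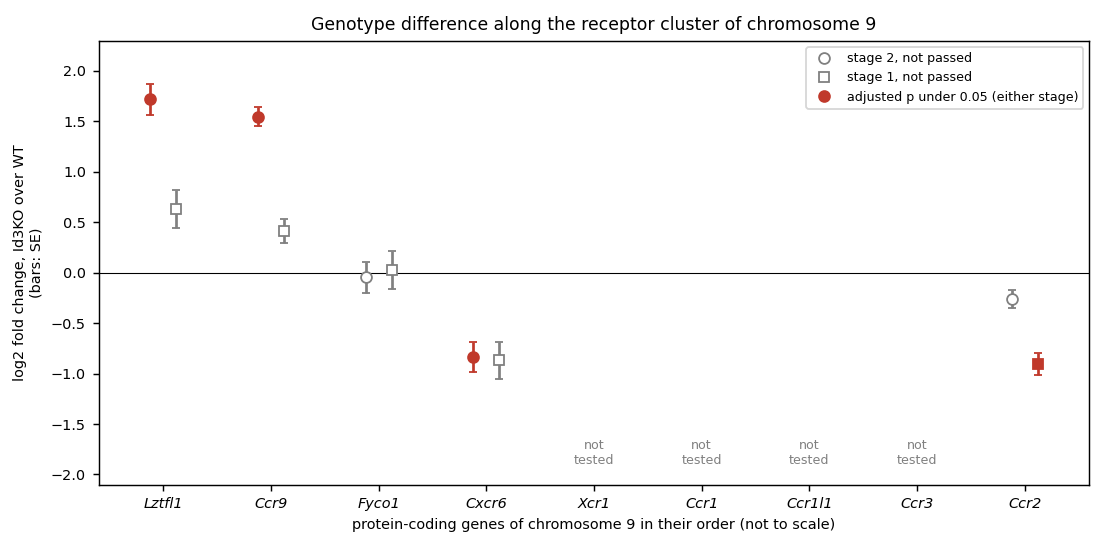
Log2 fold change of Id3KO over WT at stage 2 (circles) and stage 1 (squares) for the protein-coding genes from Lztfl1 to Ccr2 in their order on chromosome 9, with SE as bars and filled red points where the adjusted p was under 0.05. Lztfl1 at 1.72 and Ccr9 at 1.55 lie above 0 at stage 2, Fyco1 lies at -0.05, and Cxcr6 at -0.84 lies below.

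E proteins, which Id3 restrains, bind E boxes of the form CANNTG. The 250 bases before the start of Ccr9, Cxcr3 and Cxcr6, the receptors that passed at stage 2, are shown because these genes moved in opposite directions. They are taken from RefSeq promoters of GRCm38.p6, are written 5′ to 3′ on the gene's strand, and have each CANNTG in capitals.
Ccr9, chr9:123766961-123767210, + strand: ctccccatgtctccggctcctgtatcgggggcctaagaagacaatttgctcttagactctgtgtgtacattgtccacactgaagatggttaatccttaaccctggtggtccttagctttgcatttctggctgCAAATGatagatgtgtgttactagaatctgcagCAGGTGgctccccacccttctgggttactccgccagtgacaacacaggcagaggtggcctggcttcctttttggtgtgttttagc
Cxcr3, chrX:101734148-101734397, - strand: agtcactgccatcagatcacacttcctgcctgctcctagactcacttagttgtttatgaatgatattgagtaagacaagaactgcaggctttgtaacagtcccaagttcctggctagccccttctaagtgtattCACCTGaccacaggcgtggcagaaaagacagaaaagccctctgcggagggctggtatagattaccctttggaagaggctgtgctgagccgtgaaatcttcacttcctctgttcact
Cxcr6, chr9:123806227-123806476, + strand: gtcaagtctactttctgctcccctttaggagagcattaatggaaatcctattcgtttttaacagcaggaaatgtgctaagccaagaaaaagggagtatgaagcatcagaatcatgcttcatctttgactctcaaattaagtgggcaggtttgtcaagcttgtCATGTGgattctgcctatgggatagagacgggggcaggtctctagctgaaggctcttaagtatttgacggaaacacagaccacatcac
CANNTG reads as CANNTG on the other strand as well. The Ccr9 window holds 2 matches, CAAATG and CAGGTG, with first bases 118 and 85 bases before the start. The Cxcr3 window holds 1 match, CACCTG, at 116 bases, and the Cxcr6 window 1 match, CATGTG, at 88 bases. Of 32851 promoter windows of this length, 66.2% hold at least 1 CANNTG. The narrower CACCTG, which is CAGGTG on the other strand, is in 17.2%, and CAGCTG, in none of these 3 windows, is in 13.0%. Both narrower forms are also CANNTG matches. The windows of Ccr4 and Ccr2, not shown, hold 2 and 1 CANNTG, and that of Cxcr4 holds 0. In the Ccr4 window 1 match is CACCTG, at 223 bases. Ccr4 did not pass at either stage, and a link of matches to the genotype differences was not tested. Ccr7 and S1pr1 had no entry among the promoters used. A match is a sequence and not a bound site.

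For the receptors whose group means spanned more than 1 on the log2 scale, Ccr9, Cxcr3 and Cxcr6, the 2 genes of closest profile over the 10 arrays were taken from 11950 other genes. Closeness was the root mean square (RMS) difference of mean-centred log2 values, and no test was made. For Ccr9, whose own RMS about its mean was 0.685, the closest were its neighbour Lztfl1 (0.209) and Nrgn, the calmodulin-binding protein neurogranin (0.272). Nrgn read 415.8, 385.4 and 375.8 in Id3KO against 199.4, 185.4 and 200.4 in WT cells at stage 2 (log2 1.01 ± 0.12, SE, limma adjusted p = 0.00255).

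For Cxcr3, with an RMS of 0.807, the closest were Il18rap, part of the interleukin 18 receptor (0.215), and Tbx21, the T-box factor T-bet that directs interferon gamma programs (0.245). At stage 2 Tbx21 read 176.5, 179.8 and 231.2 in Id3KO against 809.5, 659.6 and 566.9 in WT cells. For Cxcr6, with an RMS of 0.489, they were Qpct, glutaminyl cyclase (0.121), and Prag1, a pseudokinase (0.172). Qpct read 66.66, 59.71 and 73.96 in Id3KO against 125.4, 118.9 and 139.1 in WT cells at stage 2. At stage 1 it was lower in Id3KO cells as well (log2 -0.77 ± 0.13, SE, limma adjusted p = 0.0343). All 10 arrays were searched at once, so these profiles share the group differences described above.

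**Figure D5:**
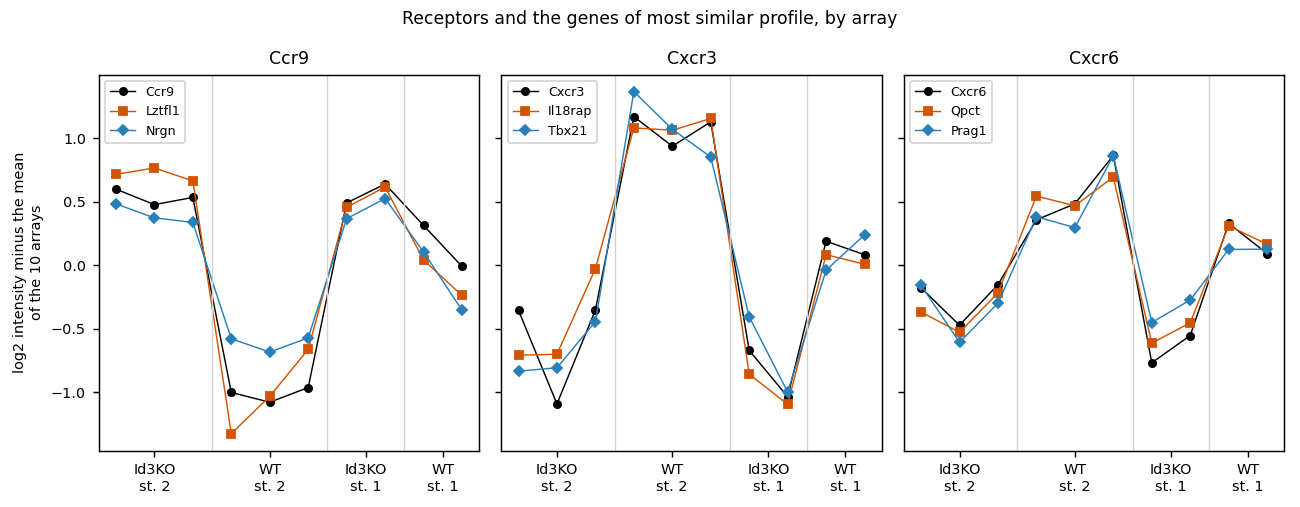
Log2 intensity of Ccr9, Cxcr3 and Cxcr6, each with the 2 genes of closest profile, on the 10 arrays after subtraction of each probe set's mean (st., stage; grey lines part the groups, and the joining lines only guide the eye). Lztfl1 and Nrgn are lowest on the 3 WT stage 2 arrays like Ccr9, while Il18rap and Tbx21 are highest there like Cxcr3.

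Among the other chemokine receptors, 9 of 17 listed genes were tested. Ccr6, Ccr8 and Cx3cr1 were lower in Id3KO cells at stage 2 and the other 6 missed the threshold (median log2 difference -0.20). Thus 3 of 9 passed against 5.58% of all genes, but Ccr8 and Cx3cr1 were kept for testing only through WT arrays. Of those 6, Cxcr5, the receptor for Cxcl13 on follicular helper T cells and B cells, was 116.3 to 289.9 in Id3KO and 76.14 to 92.13 in WT cells, without overlap (log2 1.14 ± 0.28, SE, limma adjusted p = 0.0623). Ccr8, a receptor for Ccl1 found on type 2 and regulatory T cells, was 46.07 to 50.83 in Id3KO and 65.68 to 82.63 in WT cells (log2 -0.56 ± 0.11, SE, limma adjusted p = 0.0258), and Cx3cr1 was 42.59 to 47.61 in Id3KO and 56 to 64.48 in WT cells (-0.39 ± 0.09, SE, adjusted p = 0.0468). The Id3KO values of Ccr8 and Cx3cr1 lay below the 55.1 needed to be tested, so their log2 differences are not read as folds. For the same reason the 3 of 9 is not read as a result about these receptors. Ccr6 was 54.58 to 62.96 in Id3KO and 445.9 to 867.4 in WT cells. At stage 1 limma called 0 of the 9, and 1 had an unadjusted p under 0.05. Of the other sphingosine 1-phosphate receptors, S1pr2 and S1pr4 were tested and S1pr3 and S1pr5 were too dim. S1pr4 was 275.6 to 298.7 in Id3KO and 333.6 to 378.4 in WT cells at stage 2 (log2 -0.32, adjusted p = 0.0893) and did not pass.

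Of the genes that surround thymic exit and tissue residence, 11 of 13 listed were tested. At stage 2, 2 rose, 5 fell and 4 did not pass (median -0.17), or 7 of 11 called against 5.58% of all genes. This list was chosen with earlier results of these data known, so the 7 of 11 is not read as an enrichment. Cd69, which pulls S1pr1 from the surface, was 113.6 to 137.7 in Id3KO and 79.93 to 96.64 in WT cells (log2 0.56 ± 0.12, SE, limma adjusted p = 0.0336). Lef1, a factor of naive T cells, was 837.2 to 939.7 in Id3KO and 469 to 494.1 in WT cells (0.90 ± 0.09, SE, adjusted p = 0.00131). Klf2, which promotes transcription of S1pr1, stood at 476.8 to 605.5 in Id3KO and 391.2 to 507.7 in WT cells and did not pass (0.24, adjusted p = 0.411). The members that fell were Foxo1 (-0.84), a regulator of Klf2 and Il7r, Il7r (-1.07), the interleukin 7 receptor, and the integrin chains Itgae (-3.83), Itgb7 (-0.90) and Itgal (-0.50). Itgae and Itgb7 together form the receptor for E-cadherin. The integrin chain Itga4 stood the other way, at 134.9 to 185.8 in Id3KO and 86.01 to 127.3 in WT cells. It did not pass at stage 2 (log2 0.71 ± 0.21, SE, limma adjusted p = 0.117) or at stage 1 (1.23 ± 0.26, SE, adjusted p = 0.0850). At stage 1 Itgae fell (-2.31, adjusted p = 0.0100) and 10 did not pass, or 1 of 11 called against 1.05% of all genes.

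Of the ligands and enzymes of ligand turnover, 10 of 18 listed genes were tested and limma called 0 at either stage, with an unadjusted p under 0.05 for 2 at stage 2 and 0 at stage 1. Of the genes that carry or end receptor signals, 18 of 20 were tested. At stage 2 Dock2 (-0.57 ± 0.10, SE, limma adjusted p = 0.0191), an activator of Rac downstream of chemokine receptors, and Rac2 (-0.45 ± 0.10, SE, adjusted p = 0.0497) fell. The other 16 missed the threshold (median -0.27), or 2 of 18 called against 5.58% of all genes. The 2 of 18 is not read as a result about these genes. Rac2 lay just under the threshold, and the alternative fits covered receptor probe sets and not these genes. Dock2 was 344.8 to 360.4 in Id3KO and 473.7 to 587.9 in WT cells. At stage 1 limma called 0 of the 18, and 3 had an unadjusted p under 0.05.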

How the data were processed

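RNA of sorted thymic iNKT cells was amplified in a 2-cycle protocol and hybridised to Affymetrix arrays, per the labels' protocols. The deposited table holds probe set intensity values on a linear scale from 29 to 15399, normalized by the authors with RMA, per the submitters' processing notes. Its version and the genome build are not given in the sources used here. Log2 was taken, and 25061 of 45037 probe sets above the table's median on at least 2 arrays were tested. Symbols came from the platform annotation. limma 3.58.1 in R 4.3.3 fitted 1 mean per group over all 10 arrays (6 residual and 2.80 prior degrees of freedom), with two-sided tests and Benjamini-Hochberg adjustment over all tested probe sets of a contrast. The fit was tested on simulated data. Fold changes in log2 are Id3KO over WT or stage 2 over stage 1.

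All receptor probe sets were named, with fixed-list members as examples, and the 2 genes of closest profile per receptor that varied by over 1. The members and lists were chosen with earlier results of these data known. Where a list gene has several probe sets, the one of highest mean was used. Alternatives covered the filter, normalization, prior, array weights, arrays fitted, replicate block, fold threshold and each array left out. P-values of the main fit rest on the spread of arrays within groups, pooled over all groups and moderated by the prior. Groups of few arrays thus borrow spread from the others. Some items are not reported here.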

Additional observations from a re-analysis of the deposited data

How the results depend on the processing

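Of 847 recomputed log2 differences of receptor probe sets, 810 kept direction and side of the threshold, 24 lost a call, 6 gained one and 7 changed sign. The sign changes came from leaving out arrays and touched values that did not pass. At stage 1 between genotypes, Ccr7 ranged from -0.044 to 0.287. At stage 2 Ccr4 ranged from -0.181 to 0.042 and S1pr1 from -0.347 to 0.017. Between stages, Ccr2 in WT ranged from -0.013 to 0.106 and Ccr9 in Id3KO from -0.102 to 0.046. The number of receptor probe sets called at stage 1 was 0 to 2 over the arrays left out, 0 when only the arrays compared were fitted, 0 with a fold change of at least 2, and 2 with the replicate block when the numbers of the Id3KO stage 1 arrays were crossed, a fit added after the data were seen. At stage 2 it was 4 to 7 over the arrays left out and 3 with a fold change of at least 2. Between stages in WT it was 0 to 2 over the arrays left out, 2 with array weights, 0 when only WT arrays were fitted and 0 with the replicate block. Between stages in Id3KO and in the interaction it was 0 throughout. The replicate block left 1 receptor probe set called at stage 1 and 6 at stage 2. Deviations of same-numbered arrays correlated between -0.311 and 0.133 over 13 pairs, and those of differently numbered arrays between -0.187 and 0.311. In a group of 2 arrays the deviations mirror each other, so this check cannot decide pairing. The labels do not state that the numbers pair arrays, and the numbers were not taken as pairs. Signal near background limits Ccr4, S1pr1, Cxcr4 and the dim Ccr9 probe sets.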
